A study of Mus musculus with 11 samples.

Results

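The 43 genes described here encode the kinases, adaptors, lipid enzymes and downstream effectors that carry a signal from receptors with an immunoreceptor tyrosine-based activation motif (ITAM) into the cell, with SYK, PI3K and PLCG2 at their centre. The genes were taken by name from a table of 55401 genes, where all 43 were found, and all 43 were among the 20390 genes tested. The rule lists them by name and uses no measured value, but the members were chosen with earlier results of these data known. They were measured by RNA sequencing of live CD11b+/CD45+ cells sorted from mouse brain as microglia, in 11 libraries. There were 3 libraries of Tyrobp-/-;Inpp5d+/-;NLGF mice (the compound mutant), 2 of Tyrobp-/-;NLGF (the Tyrobp single mutant), 3 of Inpp5d+/-;NLGF (the Inpp5d heterozygote) and 3 of NLGF. All mice were C57BL/6, were 9 to 10 months old and were of the NLGF line, an App knock-in that deposits amyloid, so there was no group without amyloid. Both mutations are labelled as whole-animal genotypes, with no promoter or cell type named, and the labels do not give sex.

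In an ITAM pathway, Src family kinases such as LYN phosphorylate the tail of an adaptor such as DAP12, the product of Tyrobp, and SYK docks there. SYK phosphorylates scaffolding adaptors on which TEC family kinases, phospholipase C gamma and VAV exchange factors assemble, and calcium, protein kinase C, CARD9 and NFAT lie below them. PI3K makes the membrane lipid PIP3, which brings in AKT, BTK and DAPP1, and the phosphatase SHIP1, the product of Inpp5d, removes it. In microglia this chain lies below TREM2, and PLCG2 is itself a genetic risk factor for Alzheimer's disease. The study asked how Inpp5d bears on the loss of TREM2 signalling in amyloid mice.

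Libraries held 29490567 to 66637052 counts and 20203 to 22662 detected genes. Tyrobp lay at 3.22 to 8.94 CPM (the count scaled by library size) in the 5 Tyrobp-/- libraries of both genotypes, against 1952 to 2560 CPM in the other 6. Inpp5d averaged 236 ± 40.3 CPM in compound mutants and 448 ± 1.26 CPM in Tyrobp single mutants, and 230 ± 45.5 CPM in Inpp5d heterozygotes against 318 ± 116 CPM in NLGF (SD, n = 3, 2, 3 and 3), and the library values overlapped between the last pair. Microglial markers summed to 46666 to 49801 CPM in the Tyrobp-/- libraries, against 40928 to 47937 CPM in the others, and none of the 10 was at 0. A list of 12 neutrophil markers summed to 492 to 10158 CPM in compound mutants and 4723 to 19410 CPM in Tyrobp single mutants, against 373 to 569.5 CPM in Inpp5d heterozygotes and 364 to 479 CPM in NLGF. The sum of 10 monocyte markers ran from 126 to 2070 CPM in the Tyrobp-/- libraries, against 15.6 to 79.2 CPM in the others. Markers of border-associated macrophages summed to 19.1 to 119.6 CPM in the Tyrobp-/- libraries, against 0.734 to 25.3 CPM in the others, and none of the 6 passed. A list of 10 lymphocyte markers summed to 23.7 to 51.5 CPM in the Tyrobp-/- libraries, against 19.2 to 35.5 CPM in the others, and among the genes at 0 in every library were Cd3e, Cd3g, Ms4a1 and Ncr1. In the pooled Tyrobp comparison described below, the microglial markers P2ry13 and Tmem119 and the oligodendrocyte markers Mag and Mog rose, the endothelial marker Flt1 fell, and no marker of lymphocytes, neurons, astrocytes or erythroid cells passed. Sample titles carry numbers, which were all lower for the Tyrobp-/- libraries than for the others, so any litter or handling that they mark and the Tyrobp genotype cannot be told apart. Compound replicate 1 held the lowest value of all 11 libraries in 10 of the 43 signalling genes (23.3%), against 11.5% of the 11214 genes that reached 5 CPM on average in some genotype. Inpp5d heterozygote replicate 3 was lowest in 7 (16.3%, against 8.72%) and NLGF replicate 2 in 8 (18.6%, against 10.9%).

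The sorted cells expressed nearly the whole chain. Of the 43 genes, 42 averaged 5 CPM or more in some genotype, and the median gene had a mean of 56.2 CPM, which lay above 85.4% of all genes tested. The exception was Vav3. Levels of different genes are compared per length, as CPM per kb. Among these levels Lyn, the Src family kinase, was highest (114 to 179.6 CPM per kb over the 11 libraries), followed by Lat2, a membrane scaffold for the SYK complex (64.6 to 104 CPM per kb), and Vav1, the haematopoietic Rac exchange factor (47.8 to 66.1 CPM per kb). The range of Lyn lay above that of every other member, whereas those of Lat2 and Vav1 overlapped. Syk itself ranked 32 of 43, at 1.93 to 6.98 CPM per kb, with its range overlapping those of its neighbours in this order. The lowest genes after Vav3 were Malt1, the paracaspase of the CARD9 complex (0.258 to 1.33 CPM per kb), Cblb, a ubiquitin ligase that restrains the pathway (0.369 to 2.06 CPM per kb), and Mtor (0.366 to 2.02 CPM per kb).

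**Figure D1:**
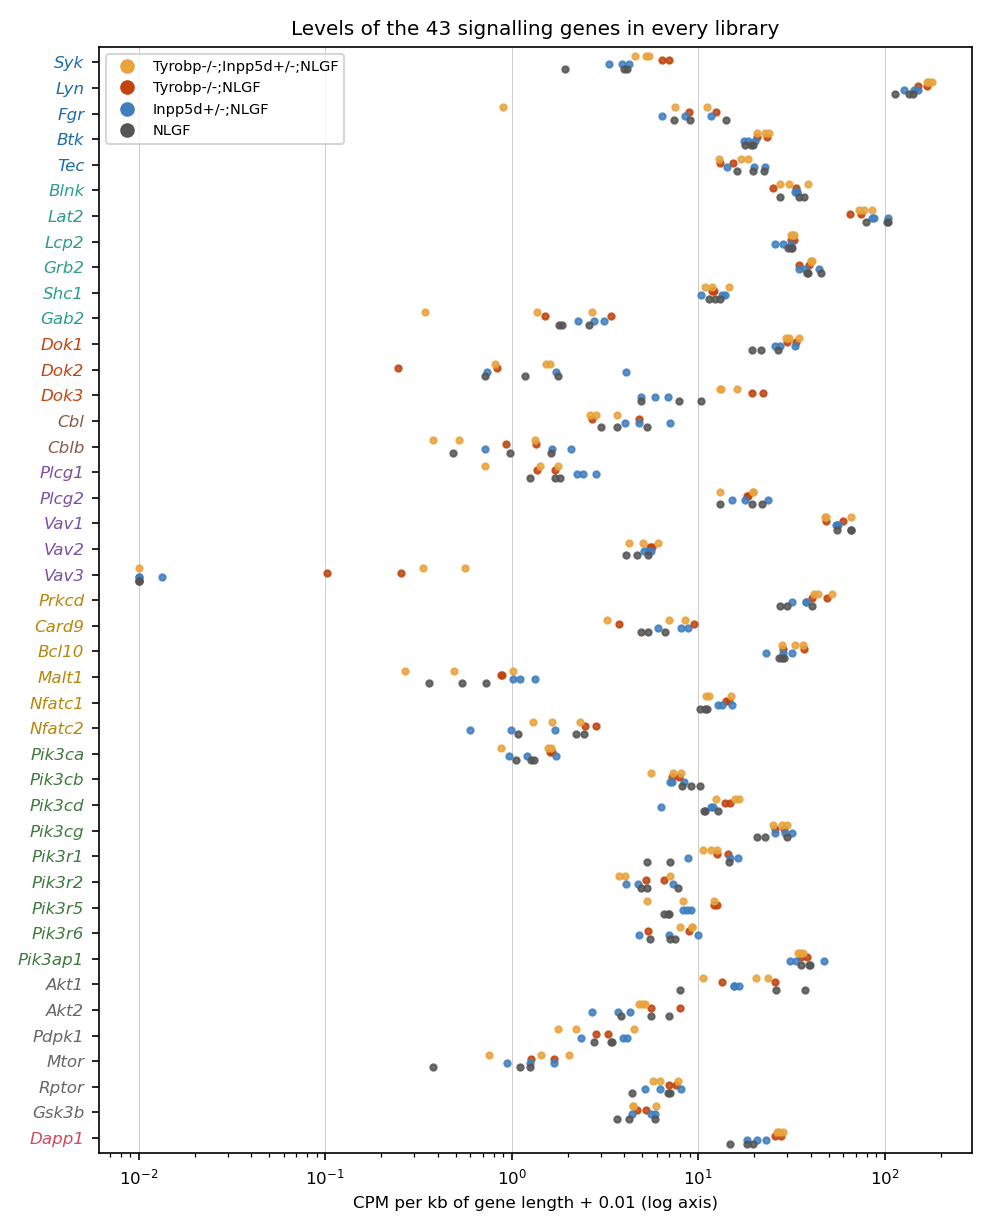
Level of each of the 43 signalling genes in every library, as CPM per kb of gene length plus 0.01 on a log axis, with 1 point per library coloured by genotype and gene names coloured by role. Lyn lies highest, Vav3 lowest, and in Dok3 (4.90 to 22.2 CPM per kb) the Tyrobp-/- points lie to the right of all others.

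In several gene families 1 member held most of the signal per length in these cells. Pik3cg, the catalytic subunit of PI3K gamma, held 49.6% to 66.4% of the summed level of the 4 class I catalytic subunits, and Pik3cd, the delta subunit, held 14.5% to 33.3%. Pik3ca, the subunit most cells rely on, held 1.83% to 3.29%. Plcg2 held 86.2% to 94.8% of the level of both gamma phospholipases, Vav1 held 89.3% to 94.1% of that of the 3 exchange factors, and Nfatc1 held 82.1% to 95.8% of that of both NFAT genes listed. Akt1 held 62.6% to 87.0% of the summed level of Akt1 and Akt2. In each of these families the leading member was the same in all 11 libraries, although the share of Pik3cg was below that of the other subunits together in its lowest library. Between the regulatory subunits the leading gene changed with the library: Pik3r5 held 36.5% to 70.1% of the summed level of Pik3r5 and Pik3r6, and Pik3r1 held 47.6% to 78.3% of that of Pik3r1 and Pik3r2. The spread between libraries of a genotype (SD of log2 CPM with 1 added) had a median of 0.312 over the signalling genes, against 0.292 over all genes with at least 5 CPM, and ran from 0.0816 for Lcp2 to 1.01 for Fgr.

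Loss of Tyrobp came with higher levels of 3 of the 43 genes and lower levels of none. Both Tyrobp-/- genotypes were set against both others with edgeR's quasi-likelihood test and Benjamini-Hochberg adjustment over all genes, at a threshold of 0.05. The genes that rose were Dok3, an inhibitory adaptor, Dapp1, an adaptor that binds PIP3, and Vav3, a Rac exchange factor. Over all genes tested, 2.08% rose and 2.66% fell (4.75% in either direction). The 3 of 43 (6.98%) are close to the share in either direction, but all 3 rose, and the share of rises alone was 2.08%. At an unadjusted p below 0.05 there were 10 higher members (23.3%, against 10.1% of all genes) and 1 lower member (2.33%, against 9.11%). The median log2 fold change was 0.05 over the members and 0.02 over all genes tested, and 23 of 43 lay above 0 (53.5%, against 51.5% of all genes). In 6 members every Tyrobp-/- library lay above every other library (14%, against 2.7% of all genes), and in no member was the order the opposite one (against 3.47%). Those 6 were Dok3, Dapp1, Syk, Lyn, Btk and Prkcd. In bulk RNA, a change in the number of cells of a type and a change in RNA per cell cannot be told apart.

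**Figure D2:**
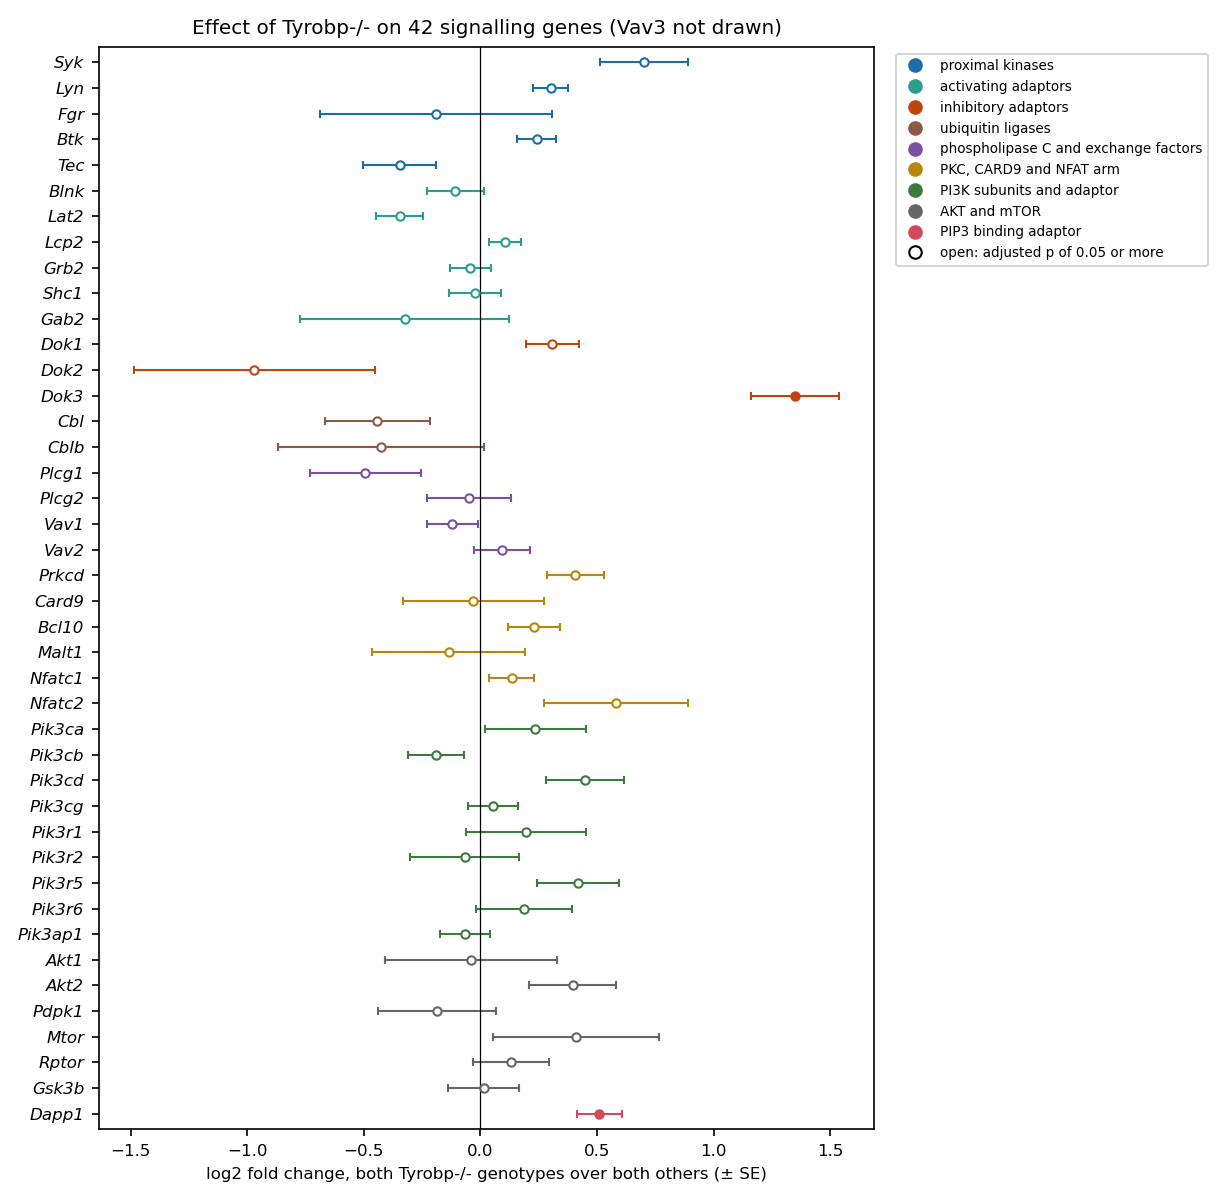
Log2 fold change of 42 signalling genes, both Tyrobp-/- genotypes over both others, with bars for the standard error (SE) and colours for the role in the pathway. Filled points passed an adjusted p of 0.05: Dok3 at 1.35 and Dapp1 at 0.51. Vav3, which also passed, is not drawn because its fitted value has no scale against libraries at or near 0.

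The inhibitory DOK adaptors recruit negative regulators to ITAM and cytokine receptors, and Dok3 rose furthest of the well expressed members. Dok3 (ENSMUSG00000035711.5, chr13:55523231-55529296, GRCm38.p6) had 32.1, 39.4 and 32.4 CPM in compound mutants and 54.6 and 47.9 CPM in Tyrobp single mutants, against 12.04, 16.9 and 14.4 CPM in Inpp5d heterozygotes and 12.1, 25.5 and 19.3 CPM in NLGF. All 5 Tyrobp-/- libraries lay above all 6 others, and the Tyrobp single mutants lay above the compound mutants without overlap. The log2 fold change for Tyrobp-/- was 1.35 (SE 0.19, adjusted p = 0.00419 by edgeR), a 2.55-fold rise. Per length, Dok3 made up 30.0% ± 3.13 of the summed DOK level in compound mutants and 39.4% ± 3.74 in Tyrobp single mutants, against 16.0% ± 0.724 in Inpp5d heterozygotes and 24.2% ± 6.21 in NLGF (SD, n = 3, 2, 3 and 3). Dok1, another inhibitory DOK adaptor, had 58.5 to 68.1 CPM in the Tyrobp-/- libraries, against 38.5 to 65.1 CPM in the others. Its difference of 0.31 on the log2 scale did not pass (adjusted p = 0.174 by edgeR). Dok2 was scarce, with 2.32, 4.38 and 4.60 CPM in compound mutants and 2.39 and 0.684 CPM in Tyrobp single mutants, against 2.11, 11.9 and 4.95 CPM in Inpp5d heterozygotes and 2.05, 3.40 and 5.08 CPM in NLGF. The groups overlapped, and its log2 fold change of -0.97 (SE 0.52) did not pass (adjusted p = 0.356 by edgeR).

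Dapp1 encodes an adaptor that PIP3 recruits to the membrane below PI3K, where Src family kinases phosphorylate it. It (ENSMUSG00000028159.14, chr3:137931007-137981545) had 118, 109 and 112 CPM in compound mutants and 106 and 115 CPM in Tyrobp single mutants, against 84.6, 75.3 and 94.7 CPM in Inpp5d heterozygotes and 75.2, 60.8 and 81.3 CPM in NLGF. The lowest Tyrobp-/- library (106 CPM) lay above the highest of the others (94.7 CPM). The rise was 1.42-fold, or 0.51 on the log2 scale (SE 0.10, adjusted p = 0.0176 by edgeR). Without either Tyrobp single mutant library the log2 fold change was 0.54 or 0.48, and the adjusted p by edgeR was 0.0656 or 0.0855.

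Vav3 (ENSMUSG00000033721.16, chr3:109340653-109685698) was nearly silent outside the Tyrobp-/- libraries. The compound mutants held 0, 207 and 97 counts and the Tyrobp single mutants 28 and 79 counts, against 1, 0 and 0 counts in Inpp5d heterozygotes and 0 in all 3 NLGF libraries. Compound replicate 1 was the only Tyrobp-/- library without a count, and the other 4 lay between 0.558 and 3.30 CPM. Per effective library size the 411 counts against 1 gave a ratio of 439, with an exact 95% interval of 78.4 to 17400 that covers counting error only. Against a floor of 3 counts per NLGF library, the mean was at least 26.8-fold higher in compound mutants and at least 15.5-fold higher in Tyrobp single mutants. The adjusted p for Tyrobp-/- was 0.0368 by edgeR. The call was lost when any library other than compound replicate 1 was left out (adjusted p of 0.0656 to 0.0999) and was kept without compound replicate 1 (0.00745).

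**Figure D3:**
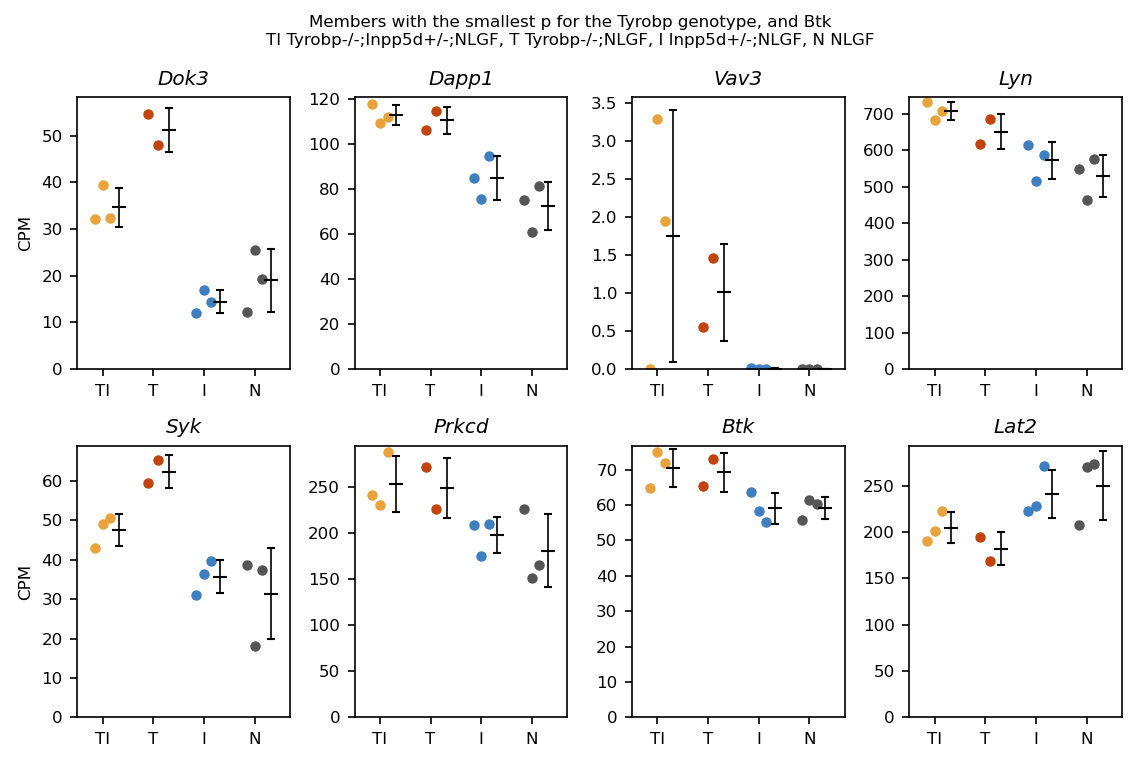
CPM in every library for the 7 members with the smallest p for the Tyrobp genotype and for Btk, with the mean and SD beside the points. All Tyrobp-/- points lie above all others for Dok3, Dapp1, Lyn, Syk, Prkcd and Btk, Vav3 is at 0 in compound replicate 1 and at or near 0 in the other genotypes, and Lat2 overlaps.

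The sequences before the start sites of the 3 members that rose are shown because these are the members whose RNA differed. Each is the 250 bases before a RefSeq start (build GRCm38.p6), 5′ to 3′ on the gene's own strand, and capitals mark the letters GGAAGT or their reverse complement ACTTCC. These letters form the core recognised by ETS factors, a family that includes Spi1 of the myeloid lineage. Dok3 is from chr13:55528539-55528788 (minus strand, its RefSeq start lying 758 bases inside the gene of the deposited table, which counts 16 of these bases as exonic), Dapp1 from chr3:137981550-137981799 (minus strand) and Vav3 from chr3:109340433-109340682 (plus strand, of which the last 30 bases are exonic in the deposited table).
Dok3: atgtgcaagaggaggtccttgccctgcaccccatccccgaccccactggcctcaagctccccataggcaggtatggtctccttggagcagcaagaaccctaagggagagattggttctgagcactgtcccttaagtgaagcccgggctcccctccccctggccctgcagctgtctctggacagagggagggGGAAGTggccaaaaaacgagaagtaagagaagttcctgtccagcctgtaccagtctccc
Dapp1: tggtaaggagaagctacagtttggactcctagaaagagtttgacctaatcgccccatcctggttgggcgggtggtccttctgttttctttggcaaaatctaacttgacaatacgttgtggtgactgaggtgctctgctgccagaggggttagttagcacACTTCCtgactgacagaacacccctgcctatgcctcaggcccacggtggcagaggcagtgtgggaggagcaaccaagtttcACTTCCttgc
Vav3: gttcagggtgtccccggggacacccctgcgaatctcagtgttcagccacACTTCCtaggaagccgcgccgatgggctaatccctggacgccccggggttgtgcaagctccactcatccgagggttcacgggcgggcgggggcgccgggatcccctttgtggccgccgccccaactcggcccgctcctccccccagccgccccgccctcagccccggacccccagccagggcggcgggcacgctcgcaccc

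Dapp1 held 2 matches, the nearest at 5 bases before the start, Dok3 held 1 at 54 bases and Vav3 held 1 at 196 bases. RefSeq windows matched 35 of the 43 members by symbol, and 16 of these 35 held the letters on either strand (45.7%), against 6485 of all 32851 windows (19.7%). The sets are unlike: each member has 1 window, the one nearest its gene start. The full set was limited neither to 1 window per gene nor to genes tested here. The AP-1 letters TGANTCA stood in 1 of 35 (2.86%, against 6.75% of all windows) and CACGTG in 3 of 35 (8.57%, against 6.02%), and neither stood in the 3 windows printed. GGAAGT and the other two motifs cannot match the same bases in full, and all were chosen with the members' values known, so these shares describe the windows only.

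The proximal kinases, which act first at the ITAM, gave no call, although 3 of the 5 were higher without overlap between groups (against 2.7% of all genes). Syk (ENSMUSG00000021457.14, chr13:52583173-52648792), the kinase that docks on the phosphorylated ITAM, had 42.9, 49.1 and 50.6 CPM in compound mutants and 59.5 and 65.3 CPM in Tyrobp single mutants, against 31.2, 36.4 and 39.6 CPM in Inpp5d heterozygotes and 38.6, 18.02 and 37.5 CPM in NLGF. All 5 Tyrobp-/- libraries lay above the 6 others, and the Tyrobp single mutants lay highest. The log2 fold change was 0.70 (SE 0.19) and did not pass, at an adjusted p of 0.0683 by edgeR. Syk passed without NLGF replicate 2, the lowest library (0.56, adjusted p = 0.0281). Over all fits with 1 library left out, the adjusted p of Syk reached 0.204. Lyn had 732, 684 and 707 CPM in compound mutants and 617 and 686 CPM in Tyrobp single mutants, against 616, 517 and 586 CPM in Inpp5d heterozygotes and 548, 464 and 577 CPM in NLGF. The groups did not overlap, but the nearest libraries lay at 617 and 616 CPM (log2 fold change 0.30, SE 0.08, adjusted p = 0.0534 by edgeR). Btk, the TEC family kinase that activates PLCG2, ran from 64.7 to 75.0 CPM in the Tyrobp-/- libraries, against 55.1 to 63.6 CPM in the others (log2 fold change 0.24, adjusted p = 0.147). Tec, its close relative, was 48.1, 69.4 and 63.4 CPM in compound mutants and 49.1 and 57.1 CPM in Tyrobp single mutants, against 85.7, 74.6 and 53.3 CPM in Inpp5d heterozygotes and 83.7, 60.5 and 73.6 CPM in NLGF. These groups overlapped, with a log2 fold change of -0.35 (SE 0.16) that did not pass (adjusted p = 0.267). Fgr, another Src family kinase, was the most variable member, from 3.45 CPM in compound replicate 1 to 47.7 CPM in the Tyrobp-/- libraries, against 24.6 to 54.5 CPM in the others (log2 fold change -0.19, adjusted p = 0.902).

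The activating adaptors, which hold the SYK complex together, gave no call. Lat2, the scaffold that myeloid cells use in place of LAT, had 190.3, 201 and 223 CPM in compound mutants and 195 and 169 CPM in Tyrobp single mutants, against 223, 229 and 271 CPM in Inpp5d heterozygotes and 208, 270.1 and 273 CPM in NLGF. It had the smallest p of the lower members (log2 fold change -0.35, SE 0.10, adjusted p = 0.0855 by edgeR), and the groups overlapped through NLGF replicate 1. Lat2 is uncertain, because 952 bases (36.3%) of its length lie over Rfc2 on the other strand, with mean levels of 223 CPM for Lat2 and 139.8 CPM for Rfc2, and the kit does not mark strand. Lcp2, the adaptor that bridges PLCG and VAV, was the steadiest member, at 140.2 to 145 CPM in the Tyrobp-/- libraries, against 114 to 141 CPM in the others (log2 fold change 0.10, adjusted p = 0.478). Blnk, Grb2, Shc1 and Gab2, which link to BTK, the RAS pathway and PI3K, had log2 fold changes of -0.11, -0.04, -0.02 and -0.33 with adjusted p of 0.717 to 0.959, and 95% intervals that reached at most 0.38 in size for the first 3.

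The ubiquitin ligases CBL and CBLB, which mark active kinases for removal, overlapped between groups. Cbl had 34.9, 45.1 and 32.2 CPM in compound mutants and 59.4 and 33.2 CPM in Tyrobp single mutants, against 86.6, 59.2 and 50.02 CPM in Inpp5d heterozygotes and 65.4, 45.0 and 36.9 CPM in NLGF. Its log2 fold change was -0.44 (SE 0.22, adjusted p = 0.33 by edgeR). Cblb ran from 3.86 to 14.0 CPM in the Tyrobp-/- libraries, against 4.996 to 21.6 CPM in the others (log2 fold change -0.43, adjusted p = 0.686).

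Plcg2, the phospholipase of this pathway in microglia, did not pass for the Tyrobp genotype. It had 55.9, 83.9 and 84.4 CPM in compound mutants and 78.8 and 79.4 CPM in Tyrobp single mutants, against 76.1, 64.8 and 102 CPM in Inpp5d heterozygotes and 83.6, 55.9 and 94.8 CPM in NLGF. The log2 fold change was -0.05, with a 95% interval of -0.45 to 0.35 (adjusted p = 0.94 by edgeR). The scarcer Plcg1 had 5.59, 13.9 and 11.1 CPM in compound mutants and 10.7 and 13.3 CPM in Tyrobp single mutants, against 17.5, 18.9 and 22.2 CPM in Inpp5d heterozygotes and 14.2, 9.78 and 13.3 CPM in NLGF. Its log2 fold change of -0.49 (SE 0.24) did not pass (adjusted p = 0.3), and 379 of its bases lie over Zhx3 on the other strand. The other two exchange factors, Vav1 and Vav2, had log2 fold changes of -0.12 and 0.09 (adjusted p = 0.621 and 0.766).

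In the arm that leads from protein kinase C to CARD9 and NFAT, Prkcd stood out. It encodes protein kinase C delta, and had 241, 230.9 and 288 CPM in compound mutants and 272 and 226.2 CPM in Tyrobp single mutants, against 209, 175 and 210.4 CPM in Inpp5d heterozygotes and 226.1, 151 and 166 CPM in NLGF. The groups did not overlap, but only by the margin between 226.2 CPM in the lowest Tyrobp-/- library and 226.1 CPM in NLGF replicate 1 (log2 fold change 0.41, SE 0.12, adjusted p = 0.0988 by edgeR). Without NLGF replicate 1 it passed (0.50, adjusted p = 0.0298 by edgeR). Over all fits with 1 library left out, its adjusted p reached 0.349. Bcl10, Malt1 and Card9, the complex that relays to NF-kB, had log2 fold changes of 0.23, -0.14 and -0.03, and the calcium-driven factors Nfatc1 and Nfatc2 had 0.13 and 0.58, with adjusted p of 0.309 to 0.99 for the 5 genes.

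The PI3K genes gave no call, although Pik3cd and Pik3r5 had an unadjusted p below 0.05. Pik3cd, the delta subunit of leukocytes, had 98.8, 103 and 78.0 CPM in compound mutants and 86.6 and 92.5 CPM in Tyrobp single mutants, against 73.2, 39.7 and 75.2 CPM in Inpp5d heterozygotes and 68.0, 67.3 and 79.4 CPM in NLGF (log2 fold change 0.45, SE 0.17, adjusted p = 0.177 by edgeR). Pik3r5, the regulatory subunit of PI3K gamma, stood at 0.42 on the log2 scale (SE 0.18, adjusted p = 0.234). It passed without compound replicate 1, its lowest library, which is 1 of 11 fits that each left out a library. Pik3cb, the beta subunit, had 39.8, 58.3 and 52.6 CPM in compound mutants and 57.0 and 52.2 CPM in Tyrobp single mutants, against 60.0, 51.7 and 50.7 CPM in Inpp5d heterozygotes and 73.5, 58.9 and 65.8 CPM in NLGF. The groups overlapped (log2 fold change -0.19, SE 0.12, adjusted p = 0.444). Pik3cg, the most abundant catalytic subunit, ran from 212 to 252 CPM in the Tyrobp-/- libraries, against 174 to 267 CPM in the others, with a log2 fold change of 0.05 and a 95% interval of -0.19 to 0.30. Pik3ca, Pik3r1, Pik3r2, Pik3r6 and Pik3ap1 lay between -0.07 and 0.24, with adjusted p of 0.636 to 0.933.

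The genes of AKT, which PIP3 recruits, of its activator PDPK1 and of mTOR and GSK3, which act below AKT, gave no call in either direction. Akt2 had 36.7, 35.3 and 34.2 CPM in compound mutants and 39.5 and 57.1 CPM in Tyrobp single mutants, against 30.7, 26.3 and 19.2 CPM in Inpp5d heterozygotes and 27.3, 49.8 and 39.6 CPM in NLGF. Its groups overlapped (log2 fold change 0.40, SE 0.19, adjusted p = 0.284 by edgeR), and it lies 2.773 Mb from Tyrobp on chromosome 7. Akt1, Pdpk1, Mtor, Rptor and Gsk3b had log2 fold changes of -0.04, -0.19, 0.41, 0.13 and 0.01 with adjusted p of 0.61 to 0.993. Akt1 and Mtor were measured loosely, with 95% intervals of -0.86 to 0.78 and -0.39 to 1.21.

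Neutrophil transcripts moved with the Tyrobp genotype, and 8 of 12 neutrophil markers and 5 of 10 monocyte markers rose in the same test. Compound replicate 1 had the lowest neutrophil sum of the Tyrobp-/- libraries, 492 CPM, which lies within the 364 to 569.5 CPM of the others. Its monocyte sum of 126 CPM lay above the 15.6 to 79.2 CPM of the other genotypes. In that library Dok3 was at 32.1 CPM, Dapp1 at 118 CPM, Syk at 42.9 CPM, Lyn at 732 CPM and Vav3 at 0. Dok3, Dapp1, Syk and Lyn are among the 6 members whose Tyrobp-/- libraries all lay above the others. Their order in this library therefore follows from that and is no separate observation. With the mean of the neutrophil markers as a covariate, the log2 fold changes were 0.84 (SE 0.31, adjusted p = 0.393 by edgeR) for Dok3, 0.55 (adjusted p = 0.364) for Dapp1 and 3.17 (adjusted p = 0.856) for Vav3, and 55 genes in all were called in place of 968. Without Tyrobp single mutant replicate 1 and compound replicate 2, the libraries with most S100a8, Dok3 was at 1.25 (adjusted p = 0.0606) and Dapp1 at 0.55 (adjusted p = 0.118). The centred covariate was -1.06 in compound replicate 1 and 2.47 to 5.80 in the remaining Tyrobp-/- libraries, against -6.43 to -0.734 in the other genotypes. It thus moved with the Tyrobp genotype, and these fits do not separate the genotype from neutrophil transcripts. Whether neutrophil transcripts account for any of the differences was not tested. Lyn, Syk, Prkcd and Lat2 stood at 0.37, 0.85, 0.59 and -0.66 with the covariate (adjusted p of 0.17 to 0.494), against 0.30, 0.70, 0.41 and -0.35 in all libraries.

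Each pair of genotypes was also compared alone. No member passed in compound mutants against Inpp5d heterozygotes, where 0.897% of all genes did, or in Tyrobp single mutants against NLGF, where 0.863% did, by edgeR. DESeq2 called 2 members in compound mutants against Inpp5d heterozygotes (Dok3 and Vav3, with 5.74% of all genes called) and 5 in Tyrobp single mutants against NLGF (Dok3, Dapp1, Syk, Pik3r5 and Vav3, with 5.72% called). At an unadjusted p below 0.05, the comparison of compound mutants with Inpp5d heterozygotes had 6 higher members (14%, against 7.15% of all genes) and 2 lower members, Plcg1 and Cbl (4.65%, against 6.26%). That of Tyrobp single mutants with NLGF had 9 higher members (20.9%, against 6.09%) and 1 lower member, Lat2 (2.33%, against 5.99%). In 9 members every compound library lay above every heterozygote library (20.9%, against 9.36% of all genes), and in 4, Cbl, Lat2, Malt1 and Plcg1, below (9.3%, against 9.22%). In 16 members both Tyrobp single mutant libraries lay above every NLGF library (37.2%, against 15.6%), and in 3, Lat2, Pik3cb and Tec, below (6.98%, against 14%). Dok3 stood at 1.26 on the log2 scale (SE 0.26, adjusted p = 0.0601 by edgeR) in compound mutants over Inpp5d heterozygotes, and at 1.44 (SE 0.28, adjusted p = 0.0522) in Tyrobp single mutants over NLGF. Dapp1 had 0.41 (SE 0.13, adjusted p = 0.211) and 0.61 (SE 0.14, adjusted p = 0.0998) in the same order of comparisons. The difference between these fold changes did not pass for either gene (interaction -0.17, 95% interval -1.02 to 0.67, for Dok3 and -0.20, 95% interval -0.63 to 0.24, for Dapp1, adjusted p = 1 each).

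**Figure D4:**
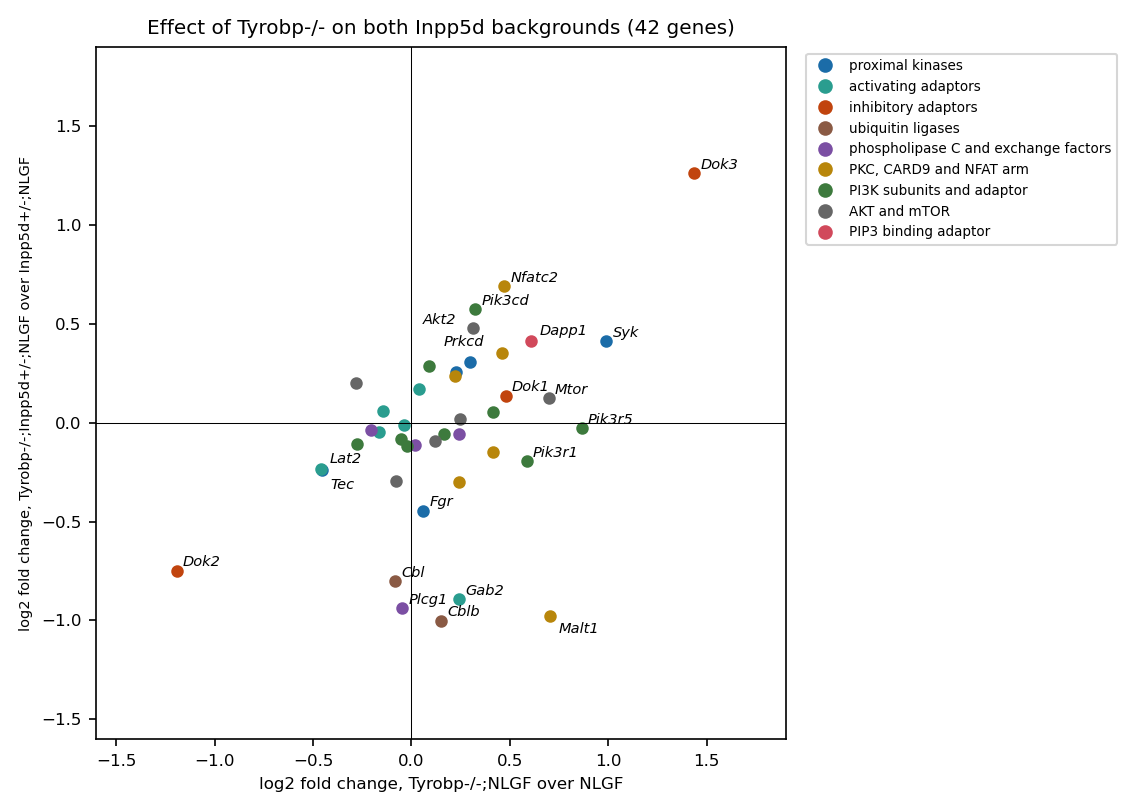
Log2 fold change of 42 signalling genes in Tyrobp single mutants over NLGF (horizontal) and in compound mutants over Inpp5d heterozygotes (vertical), coloured by role, without Vav3. Dok3 lies far to the upper right at 1.44 and 1.26, Dok2 to the lower left, and Malt1 lies at the lower right, with opposite signs.

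Compound mutants were also set against NLGF, libraries that the comparison of Tyrobp single mutants with NLGF shares. No member passed in compound mutants against NLGF (0.873% of all genes passed by edgeR), and DESeq2 called Dapp1, Dok3, Lyn and Vav3 (5.64% of all genes called). The members nearest to passing were Dapp1 (log2 fold change 0.64, SE 0.13, adjusted p = 0.0616) and Lyn (0.42, SE 0.10, adjusted p = 0.114). Dok3 stood at 0.87 (SE 0.25, adjusted p = 0.184) in compound mutants over NLGF. At an unadjusted p below 0.05 there were 8 higher members (18.6%, against 6.52% of all genes) and 1 lower member, Pik3cb (2.33%, against 6.52%). The libraries did not overlap in 8 higher members (18.6%, against 9.04%) and 1 lower member, again Pik3cb (2.33%, against 8.92%).

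No signalling gene passed for the Inpp5d genotype. Both genotypes with Inpp5d+/- were set against both without it, and no gene of all 20390 passed by edgeR (0% called), so no member did; at an unadjusted p below 0.05 there were 1053 genes (5.16%). DESeq2 called 55 genes and limma-voom 1, none of them a member. Inpp5d itself stood at -0.70 on the log2 scale (SE 0.19, adjusted p = 0.943 by edgeR), so this comparison does not call even the gene that was targeted. At an unadjusted p below 0.05 there were 3 lower members, Akt2, Dok3 and Nfatc2 (6.98%, against 2.51% of all genes), and no higher member (against 2.65%). In no member did the libraries separate completely (against 0.142% higher and 0.0785% lower of all genes). The median log2 fold change was 0.02 over the members and 0.00 over all genes.

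Akt2 was lower on both Tyrobp backgrounds in the mean, with the library values given above. Its log2 fold change for Inpp5d+/- was -0.53 (SE 0.19, adjusted p = 0.943 by edgeR). It averaged 35.4 ± 1.21 CPM in compound mutants and 48.3 ± 12.4 CPM in Tyrobp single mutants, and 25.4 ± 5.80 CPM in Inpp5d heterozygotes against 38.9 ± 11.2 CPM in NLGF (SD, n = 3, 2, 3 and 3). Dok3, the inhibitory adaptor, averaged 34.6 ± 4.11 CPM in compound mutants and 51.3 ± 4.73 CPM in Tyrobp single mutants, without overlap, and 14.4 ± 2.42 CPM in Inpp5d heterozygotes against 19.0 ± 6.69 CPM in NLGF, with overlap (log2 fold change -0.48, SE 0.19, adjusted p = 0.943 by edgeR). Nfatc2 had 13.7, 17.4 and 24.5 CPM in compound mutants against 26.0 and 29.7 CPM in Tyrobp single mutants, and 10.3, 6.19 and 17.997 CPM in Inpp5d heterozygotes against 25.6, 11.4 and 23.2 CPM in NLGF. Its groups overlapped when Tyrobp was present (log2 fold change -0.70, SE 0.31, adjusted p = 0.943 by edgeR).

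The other members nearest to a difference for Inpp5d+/- had an unadjusted p above 0.05. Lower values were those of Pik3cb (log2 fold change -0.20, adjusted p = 0.984 by edgeR), Akt1 (-0.34, adjusted p = 1) and Fgr (-0.46, adjusted p = 1). Higher values were those of Dok2 (1.07, adjusted p = 0.943 by edgeR), Lyn (0.12), Dok1 (0.17), Dapp1 (0.13), Pik3cg (0.13) and Vav3, the last 5 with an adjusted p of 1. Dok1 had 68.1, 60.5 and 58.5 CPM in compound mutants against 58.9 and 65.8 CPM in Tyrobp single mutants, and 51.1, 65.1 and 53.9 CPM in Inpp5d heterozygotes against 38.5, 42.8 and 52.9 CPM in NLGF. Akt1 had 43.5, 83.6 and 97.0 CPM in compound mutants against 106 and 54.9 CPM in Tyrobp single mutants, and 67.7, 63.6 and 63.8 CPM in Inpp5d heterozygotes against 32.7, 107 and 153 CPM in NLGF. Both genes overlapped on both backgrounds. Fgr had 3.45, 28.9 and 42.7 CPM in compound mutants against 47.7 and 34.3 CPM in Tyrobp single mutants, and 24.6, 32.7 and 44.9 CPM in Inpp5d heterozygotes against 34.7, 28.6 and 54.5 CPM in NLGF, also with overlap. Pik3cg had 212, 237 and 252 CPM in compound mutants against 217 and 243 CPM in Tyrobp single mutants, and 216, 244.8 and 267 CPM in Inpp5d heterozygotes against 250.3, 174 and 192 CPM in NLGF, again with overlap.

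**Figure D5:**
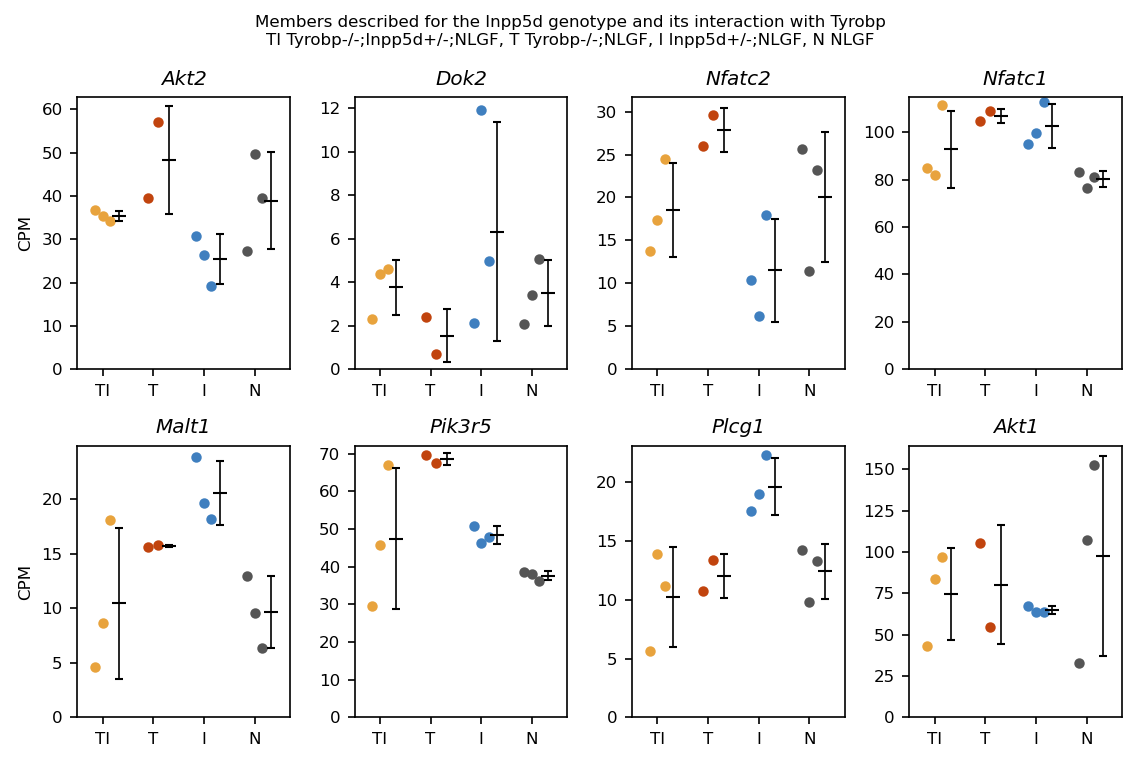
CPM in every library for 8 members described for the Inpp5d genotype and its interaction with Tyrobp, with the mean and SD beside the points. Malt1 and Plcg1 lie highest in the Inpp5d heterozygotes, Pik3r5 lies highest in the Tyrobp single mutants, and Akt1 spreads from 32.7 to 153 CPM within NLGF.

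With Tyrobp present, Inpp5d heterozygotes were set against NLGF, and no gene passed (0% called, by edgeR; 951 genes, 4.66%, had an unadjusted p below 0.05). DESeq2 called 29 genes, none of them a member. At an unadjusted p below 0.05 the higher members were Nfatc1 (log2 fold change 0.35), Malt1 (1.09) and Dok1 (0.34), 6.98% of members against 2% of all genes, and the lower one was Akt2 (-0.61), 2.33% against 2.66%, each with an adjusted p of 0.952 by edgeR. In 4 members the 3 heterozygote libraries all lay above the 3 NLGF libraries (Malt1, Nfatc1, Pik3r5 and Plcg1, 9.3% against 3.64% of all genes), and in none did they all lie below (against 3.97%). Nfatc1, which was more abundant per length than Nfatc2, had 95.0035, 99.9 and 113 CPM in Inpp5d heterozygotes against 83.2, 76.5 and 81.0 CPM in NLGF.

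With Tyrobp absent, compound mutants were set against Tyrobp single mutants, and 2 genes of all 20390 passed (0.00981%, by edgeR), neither of them a member. DESeq2 called 50 genes, none a member. No member had an unadjusted p below 0.05, against 4.08% of all genes (2.23% higher and 1.85% lower). In 6 members every compound library lay below both Tyrobp single mutant libraries (Akt2, Dok3, Nfatc2, Pik3r1, Pik3r5 and Syk, 14% against 9.66% of all genes), and in 1, Grb2, every one lay above (2.33% against 9.13%). Dok3 had the smallest p of them, with a log2 fold change of -0.57 (SE 0.28, 95% interval -1.19 to 0.06, adjusted p = 1 by edgeR).

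No gene passed the interaction of both genotypes by edgeR (0% called; 958 genes, 4.7%, had an unadjusted p below 0.05), although DESeq2 called 36, none a member. Members with an unadjusted p below 0.05 were Nfatc1 (-0.56, SE 0.20), Malt1 (-1.68, SE 0.65) and Pik3r5 (-0.89, SE 0.35), all lower (6.98%, against 2.01% of all genes), with an adjusted p of 1 in each case. Malt1 had 4.65, 8.66 and 18.1 CPM in compound mutants against 23.9, 19.7 and 18.2 CPM in Inpp5d heterozygotes, and 15.7 and 15.8 CPM in Tyrobp single mutants against 13.01, 9.61 and 6.35 CPM in NLGF. Every compound library thus lay below every heterozygote library, and both single mutant libraries lay above every NLGF library. Pik3r5 had 29.6, 45.7 and 67.0 CPM in compound mutants against 69.6 and 67.4 CPM in Tyrobp single mutants, and 50.9, 46.2 and 47.9 CPM in Inpp5d heterozygotes against 38.5, 38.1 and 36.2 CPM in NLGF. The Inpp5d heterozygotes lay above NLGF, and the compound mutants below the Tyrobp single mutants.

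Further genes of the pathway were followed in 3 lists. Of 29 further Src and TEC family kinases and adaptors, 24 were tested. Grap, an adaptor related to GRB2, rose for Tyrobp-/-, with 57.4, 54.4 and 60.7 CPM in compound mutants and 60.8 and 68.9 CPM in Tyrobp single mutants, against 22.4, 25.4 and 18.3 CPM in Inpp5d heterozygotes and 34.3, 42.4 and 32.2 CPM in NLGF (log2 fold change 1.11, SE 0.12, adjusted p = 0.00101 by edgeR). All 5 Tyrobp-/- libraries lay above the 6 others. The adaptors Sla (0.43, adjusted p = 0.00813) and Fyb (0.69, adjusted p = 0.0254) and the kinase Csk, which restrains Src family kinases (0.46, adjusted p = 0.0451), also rose, and the kinase Fyn fell (-1.21, adjusted p = 0.0381). In compound mutants against Inpp5d heterozygotes alone, Grap (1.39, adjusted p = 0.00494) and Sla (0.48, adjusted p = 0.0471) rose. The lower member of the list that came next for Tyrobp-/- was Sos2, an exchange factor for RAS (-0.58, adjusted p = 0.201).

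None of 22 further PI3K, AKT and mTOR genes passed for Tyrobp-/- by edgeR. Among those with an unadjusted p below 0.05 were Rragc (log2 fold change -0.28, adjusted p = 0.256), Rraga (0.28, adjusted p = 0.142) and Eif4ebp1 (0.31, adjusted p = 0.233). Rraga passed with DESeq2, which called 11.5% of all genes. Of 29 further genes for calcium, PKC, NFAT, CARD9 and Rac, 2 rose and 2 fell (against 2.08% and 2.66% of all genes). Orai1, the pore of store-operated calcium entry, ran from 295 to 351 CPM in the Tyrobp-/- libraries, against 223 to 279.5 CPM in the others (0.44, adjusted p = 0.0139), and Nfkb1, a subunit of NF-kB, also rose (0.62, adjusted p = 0.0173). Rasgrp3, an exchange factor for RAS that diacylglycerol activates, fell to 143 to 158 CPM in the Tyrobp-/- libraries, against 194 to 272 CPM in the others (-0.54, adjusted p = 0.00956), and Ikbkb, the kinase that frees NF-kB, fell by 0.52 (adjusted p = 0.0348). On the receptor side, Hcst, the gene next to Tyrobp, which encodes an adaptor that recruits PI3K, had a log2 fold change of -2.23 (adjusted p = 0.00219) and the ITAM adaptor gene Fcer1g -0.31 (adjusted p = 0.0402), while Trem2 at -0.16 did not pass (adjusted p = 0.375).

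No gene of the 3 lists passed for Inpp5d+/- by edgeR. Grap (log2 fold change -0.45), Yes1 (-0.48), Ikbkg (-0.22) and Ppp3r1 (-0.19) had an unadjusted p below 0.05, each with an adjusted p of 0.943. The others nearest in each list were Gsk3a (-0.43) and Pik3c2a (-0.33) on the lower side, and Sos2 (0.41), Lck (1.17), Tsc2 (0.51), Pik3c2b (0.49), Ikbkb (0.25) and Prkch (0.11) on the higher side, with adjusted p of 0.943 to 1.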

How the data were processed

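RNA of sorted microglia was made into libraries with a SMART-Seq v4 kit, which does not mark strand, per the labels' protocols. The authors deposited a table of raw read counts per gene, and the submitters' processing notes name STAR 2.7.3a, featureCounts 1.6.4 and the builds GRCm38.p6 and mm10. The strand setting and annotation release were not given in the sources used here. Library totals ran from 29490567 to 66637052 counts, so that 3 counts, the floor, were worth 0.0477 to 0.100 CPM (counting error only). Replicate numbers were given in sample order and pair nothing. The series' design text counts mice; p-values rest on the spread among libraries, and no culture or litter is named.

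Counts were analysed in R 4.3.3 with edgeR 4.0.16: filterByExpr (minimum count 10, minimum total 15) kept 20390 of 55401 genes, scaling was by TMM, and a quasi-likelihood model with 4 group coefficients gave 8 comparisons, adjusted by Benjamini-Hochberg over all genes (threshold 0.05). The SE given for edgeR is the size of the log2 fold change over the square root of its quasi-likelihood F statistic. Intervals of 95% use this SE and the t quantile at edgeR's degrees of freedom. The steps were tested on simulated data. Limma 3.58.1 and DESeq2 1.42.0 served as alternatives, with other scalings, filters, an additive model, a neutrophil covariate and libraries left out. The named members are those called in any comparison and the 6 per direction with the smallest p for either pooled genotype; further members are given in short. From each further list, the called genes and 2 per direction are named. The members and lists were chosen with earlier results of these data known. Promoter windows came from RefSeq. No protein sequence is shown. Some genes of the further lists and markers are not reported here.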

Additional observations from a re-analysis of the deposited data

Results flagged for a closer look

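For 2 members the effect of one genotype went in opposite directions on the backgrounds of the other, with no overlap of libraries on either (Tyrobp-/- for Malt1, Inpp5d+/- for Pik3r5). The share of all genes with such a pattern was not counted. For Malt1, the single comparisons had 15.6% of all genes higher in Tyrobp single mutants than NLGF, and 9.22% lower in compound mutants than Inpp5d heterozygotes, without overlap. For Pik3r5, they had 3.64% higher in Inpp5d heterozygotes than NLGF, and 9.66% lower in compound mutants than Tyrobp single mutants. The interaction had an unadjusted p below 0.05 for both members and did not pass adjustment. The log2 interaction of Malt1, the paracaspase, was -1.68 (SE 0.65, adjusted p = 1 by edgeR) and lay between -2.34 and -1.33 when 1 library was left out. The log2 interaction of Pik3r5, the PI3K gamma subunit, was -0.89 (SE 0.35, adjusted p = 1 by edgeR) and lay between -1.23 and -0.64. Compound replicate 1 held the lowest value of both genes in its genotype, at 4.65 CPM for Malt1 and 29.6 CPM for Pik3r5.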

How the results depend on the processing

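No paired analysis was possible because the replicate numbers only follow sample order. For the pooled Tyrobp comparison, the 3 members called by edgeR became 5 with the stricter filter (at least 5 CPM; Vav3 is then not tested), 8 with DESeq2, 7 at a threshold of 0.1, 0 with the neutrophil covariate and 0 without the 2 libraries with most S100a8, and 1 to 4 when 1 library was left out. Without either Tyrobp single mutant library, 1 member (Dok3) was called. Tyrobp single mutants against NLGF gave 2 members with the stricter filter, 5 with DESeq2, 1 with limma-voom, 2 at 0.1 and 0 to 1 with a library left out. Compound mutants against Inpp5d heterozygotes gave 1, 2 (DESeq2), 1 at 0.1 and 0 to 1. Compound mutants against NLGF gave 1, 4 (DESeq2), 1 at 0.1 and 0. The other 4 comparisons gave 0 members in every alternative run. Dok3 passed in all 11 fits without a library (adjusted p 0.00384 to 0.0268 by edgeR), and Lyn passed with RLE scaling (0.0482), the stricter filter, DESeq2, limma-voom and the additive model. The log2 fold changes for Inpp5d+/- of Vav3 (-0.094 with limma-voom) and Lck (-0.30 without compound replicate 1, within a range of -0.30 to 1.49 over the libraries left out) reversed, and neither passed in any fit; the cause was not tested.

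Over all genes, the 968 calls for Tyrobp-/- were 2159 with DESeq2, 1629 at 0.1, 55 with the covariate, 216 without both libraries and 356 to 774 with 1 left out. The 176, 183 and 178 calls of Tyrobp single mutants against NLGF, compound mutants against Inpp5d heterozygotes and compound mutants against NLGF became 1035, 1038 and 1000 with DESeq2, 388, 372 and 355 with the stricter filter, 13, 34 and 30 with the covariate, 27, 50 and 64 without both libraries, and 77, 104 and 56 with 2 groups only. Limma-voom gave 327 for the first. For Inpp5d+/- DESeq2 gave 55 and the stricter filter 2.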
